A study of Danio rerio with 49 samples.

Results

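Spinal cord caudal to a transection was compared with spinal cord rostral to it at 6 weeks post injury (wpi), using the 4 caudal and the 4 rostral RNA-seq libraries that carry the replicate numbers 1, 2, 3 and 5. These are 8 of the 49 libraries analysed here, and same-numbered libraries were taken as pairs. Of 40085 genes in the table, 28225 had a mean of at least 0.1 FPKM (fragments on a gene, scaled for its length and for the depth of the library) in these 8 libraries and were tested. The fish were wild-type zebrafish of the AB strain, young adults of both sexes, whose cord had been cut completely at the seventh segment. Each library held 5 segments of cord on one side of the cut, and the matching segments of uninjured AB fish, with 5 caudal and 5 rostral libraries, show which differences the intact cord has along its length. All groups were whole tissue, and no transgene or drug was used in them. The methods give 3 fish for each group and do not state whether each library held its own fish, so p-values measure only the spread between libraries, which may be technical. Caudal replicate 4 at 6 wpi was not analysed here, and rostral replicate 4 therefore has no partner.

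Position along the cord is written in its Hox genes, which encode homeodomain transcription factors and lie in clusters. In vertebrates the genes of the low-numbered paralog groups are used from the hindbrain backward, and those of the high-numbered groups begin progressively closer to the tail, in the same order as the genes lie in their cluster. Zebrafish keep a and b copies of several clusters from a genome duplication, so one paralog group can have several members. Adult zebrafish also rebuild the cord after a cut, with ependymal radial glia that divide and bridge the lesion, and the study made these libraries to look for serotonin receptor genes that act in the regrowth of axons.

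At 6 wpi the libraries held 11514156 to 22669333 fragments on genes, against 12658925 to 26940599 in the uninjured fish. Mitochondrial transcripts took 16.8 to 24.7% of the fragments at 6 wpi. The replicate 5 pair at 6 wpi stood apart from the other pairs in the share of fragments on loci without an Ensembl identifier. This share was 3.19% in the rostral and 3.22% in the caudal library, against 4.19 to 4.53% in the other 6. In uninjured fish replicates 4 and 5 held 2.36 to 2.76%, against 3.39 to 3.85% in replicates 1 to 3. At 4 wpi the same numbers held 2.89 to 3.39% against 3.79 to 5.55%. The unpaired rostral replicate 4 at 6 wpi held 3.07%, and the source of this split by replicate number was not tested. Neuronal markers were abundant on both sides, with a summed level of 3016 to 4084 FPKM in the rostral and 2751 to 4283 FPKM in the caudal libraries. In bulk tissue, fewer cells of a type and less RNA per cell cannot be told apart.

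Most of the genes that passed the threshold between the caudal and the rostral cord at 6 wpi, in the fit of these 8 libraries, were Hox genes. Past an adjusted p of 0.05 (limma on log2(FPKM + 0.1), pairs as blocks, two-sided, Benjamini-Hochberg over all genes tested), 10 genes differed, which is 0.0354% of those tested. Of these, 7 were higher in the caudal libraries (0.0248% of all genes tested) and 3 were lower (0.0106%). All 7 that were higher and 2 of the 3 that were lower are Hox genes. The other was a microRNA locus that rests on single fragments. The count was 4 to 6 without any 1 pair, all of them Hox genes higher in the caudal libraries. The 2 lower Hox genes thus lost the call whichever pair was left out, though they kept their direction. The count was 60 with 11 Hox genes by voom on the fragments recovered from the FPKM. It was 182 with 12 Hox genes with all time points in one fit.

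The steepest difference was in hoxd11a, a posterior gene of the D cluster (chromosome 9, 1975818 to 1978090, minus strand, danRer11). It measured 0, 0.0877, 0.0791 and 0 FPKM in rostral replicates 1, 2, 3 and 5, and 16.6, 9.80, 17.5 and 16.8 FPKM in the caudal libraries of the same numbers. The rostral values stand for 4 fragments in all and the caudal values for 1418, which is a caudal to rostral ratio of 361 with an exact 95% interval of 141 to 1328 (counting error only, since copies made by PCR are not independent molecules). The fitted difference was 6.78 on the log2(FPKM + 0.1) scale (SE 0.30, adjusted p = 0.0016, limma), and since the rostral level lies below the pseudocount, it was 3.93 with a pseudocount of 1 and 8.92 with 0.01. hoxd11a was thus close to absent rostral to the cut and present in every caudal library.

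Its neighbours hoxd10a and hoxd9a were measurable on both sides and higher in the caudal libraries. hoxd10a (chromosome 9, 1967707 to 1970071) measured 5.27, 5.85, 9.50 and 8.57 FPKM in the rostral and 64.6, 59.3, 70.0 and 98.3 FPKM in the caudal libraries. The means were 7.30 ± 2.06 and 73.0 ± 17.4 FPKM (SD, n = 4 each), a 9.99-fold difference on the fitted scale (log2 difference 3.32, SE 0.14, adjusted p = 0.0016, limma). hoxd9a (chromosome 9, 1964005 to 1965727) measured 21.7, 28.4, 22.6 and 27.0 FPKM in the rostral and 74.8, 75.9, 70.9 and 94.5 FPKM in the caudal libraries, a 3.16-fold difference (log2 1.66, SE 0.10, adjusted p = 0.00888). The groups did not overlap for either gene, and the excess on the caudal side grew from paralog group 9 to group 11 along this cluster. This order is a description, and the differences between neighbouring genes were not tested.

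**Figure D1:**
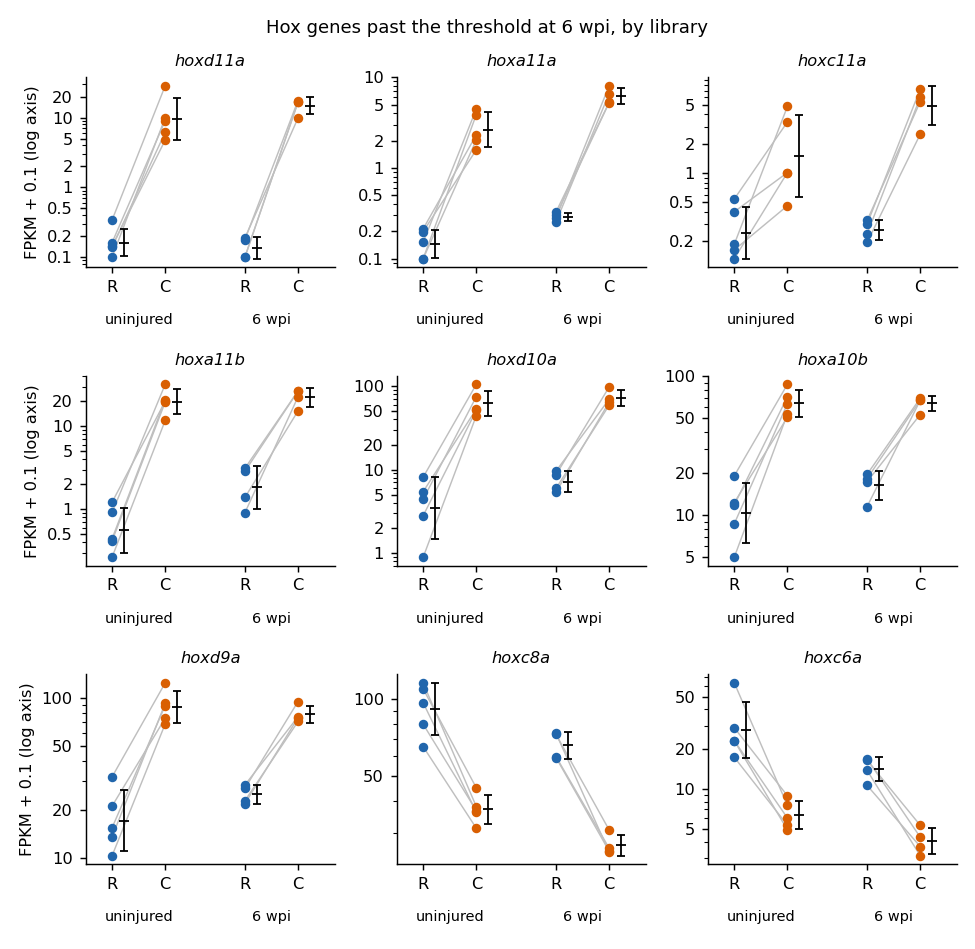
Level of the 9 Hox genes past the threshold at 6 wpi in each library, as FPKM + 0.1 on a log axis, for uninjured fish (5 pairs) and 6 wpi (4 pairs), with rostral (R, blue) and caudal (C, orange) libraries of the same replicate number joined by a line and black bars for the mean and SD of the log2 values. At 6 wpi the caudal libraries lie wholly above (7 genes) or wholly below (hoxc8a and hoxc6a) the rostral ones in all 9 panels. These genes were called from the same 6 wpi libraries, so that separation is no separate evidence. In uninjured fish the groups of hoxc11a alone overlap.

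The A clusters gave 3 further genes of groups 10 and 11. hoxa11b (chromosome 16, 20904754 to 20907378) measured 0.807, 1.28, 2.76 and 3.01 FPKM in the rostral and 22.5, 15.2, 26.4 and 26.5 FPKM in the caudal libraries, a 12.2-fold difference (log2 3.60, SE 0.26, adjusted p = 0.0162, limma). hoxa10b, next to it at 20910186 to 20913003, measured 11.5, 17.4, 18.3 and 19.6 FPKM against 67.0, 52.9, 67.1 and 69.3 FPKM, a 3.88-fold difference (log2 1.96, SE 0.16, adjusted p = 0.0268). The lowest caudal library was replicate 2 for both, and it still lay above every rostral library.

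The copy in the other A cluster, hoxa11a (chromosome 19, 19737214 to 19738923), was low. It measured 0.181, 0.227, 0.154 and 0.199 FPKM in the rostral libraries, 14 fragments in all, and 7.96, 5.18, 6.52 and 5.16 FPKM in the caudal libraries, 448 fragments in all. The ratio of fragments was 32.6 (exact 95% interval 19.2 to 60.1, counting error only), and the fitted log2 difference was 4.42 (SE 0.20, adjusted p = 0.0016, limma). hoxa11a and hoxa11b were both higher caudally, at levels that differed between the copies within each side. How the counting tool treated fragments that match both copies is not given in the sources used here.

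In the C cluster of chromosome 23 the 2 directions met. hoxc11a (36074798 to 36078132) measured 0.200, 0.0941, 0.226 and 0.138 FPKM in the rostral libraries and 7.19, 2.41, 5.32 and 5.90 FPKM in the caudal ones, with 22 and 686 fragments. The ratio of fragments was 31.8 (exact 95% interval 20.8 to 51.1, counting error only) and the log2 difference 4.25 (SE 0.22, adjusted p = 0.00278, limma). The groups lay far apart, and caudal replicate 2 was the lowest of its group.

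Further along the same cluster the difference turned. hoxc8a (36101185 to 36103635), a thoracic-level gene in other vertebrates, measured 73.6, 59.6, 59.1 and 72.8 FPKM in the rostral and 25.1, 26.0, 25.4 and 30.7 FPKM in the caudal libraries. It was 2.46-fold lower in the caudal cord (log2 difference -1.30, SE 0.10, adjusted p = 0.0233, limma). hoxc6a (36115541 to 36116907) measured 16.8, 10.5, 16.4 and 13.7 FPKM against 4.22, 3.57, 5.21 and 3.03 FPKM, 3.53-fold lower (log2 -1.82, SE 0.13, adjusted p = 0.0174). For both, every caudal library lay below every rostral one, and the caudal values of hoxc8a spread by only 2.63 FPKM (SD) around a mean of 26.8.

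Other members of these clusters did not pass the threshold. hoxc10a, of group 10, measured 2.55 to 3.97 FPKM in the rostral and 6.98 to 14.2 FPKM in the caudal libraries without overlap (log2 difference 1.68, adjusted p = 0.0888, limma). Its annotated span covers hoxc11a. The paper does not state whether the tissue libraries mark strand, so fragments of overlapping genes cannot be told apart with certainty. hoxd12a was at 0 to 0.0774 FPKM in the rostral and 0.209 to 1.47 FPKM in the caudal libraries (log2 2.26, adjusted p = 0.386). On the low-numbered side, hoxc5a was at 9.31 ± 2.58 FPKM in the rostral and 5.19 ± 1.3 FPKM in the caudal libraries, lower in 4 of 4 pairs with a log2 difference of -0.82 (adjusted p = 0.15).

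Across the family, 48 Hox genes were identified and 43 were tested. In groups 9 to 13, 18 of 23 genes were tested, 15 had a higher mean log2 level in the caudal cord, 7 passed the threshold, and the median difference was 1.28. In groups 1 to 8, all 25 were tested, 15 had a lower and 10 a higher mean log2 level, 2 passed the threshold, and the median was -0.05, against -0.01 over all genes tested. The rise was carried by groups 10 and 11, with medians of 1.82 and 4.25, while group 9 had a median of 0.15. Only 1 of 6 genes of group 13, the tail-most group, had a level high enough to be tested, hoxa13b at 0.155 ± 0.0564 FPKM rostral and 0.250 ± 0.188 FPKM caudal.

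Genes of the B cluster did not differ past the threshold. hoxb7a and hoxb8a were among the most abundant Hox genes of the cord, at 222 ± 47.1 and 187 ± 35.4 FPKM in the rostral and 176 ± 39.6 and 169 ± 19.5 FPKM in the caudal libraries (log2 differences -0.33 and -0.14, adjusted p = 0.694 and 0.864, limma). hoxb9a was at 56.8 ± 6.78 against 53.7 ± 4.26 FPKM, and hoxb10a, of the same group as hoxd10a and hoxa10b, at 34.7 ± 5.14 against 35.5 ± 6.81 FPKM (log2 0.02, SE 0.09, adjusted p = 0.989). The groups overlapped for all 4.

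**Figure D2:**
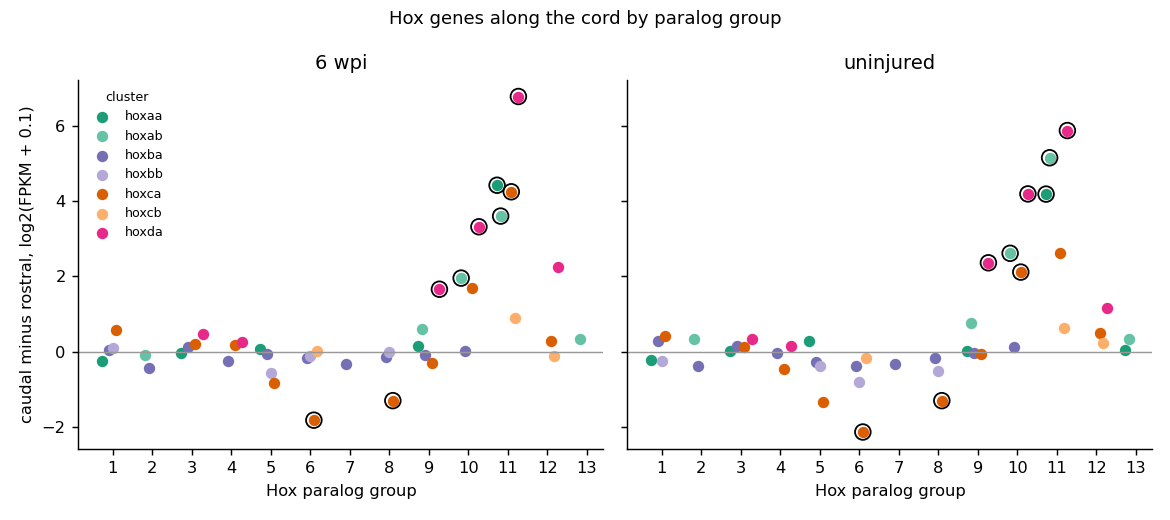
Difference between caudal and rostral cord on the log2(FPKM + 0.1) scale for each Hox gene tested, by paralog group (x axis) and cluster (color), at 6 wpi (left) and in uninjured fish (right). Black rings mark genes past the threshold, which at 6 wpi lie below zero in groups 6 and 8 and above zero in groups 9 to 11.

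Of 27 other features annotated within the clusters, 21 were tested and 0 passed the threshold. The largest difference was in the microRNA gene mir196d, whose family lies between Hox genes of groups 9 and 10 in vertebrates. It was at 0 FPKM in 3 of 4 rostral libraries and had at most 5 fragments in any library (log2 3.84, adjusted p = 0.147, limma). The transcript si:dkey-81p22.14 (log2 1.15) had an adjusted p of 0.176. These features overlap or adjoin Hox genes, and the paper does not state whether fragments were separated by strand.

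The same Hox difference was present in uninjured cord. There, 17 of 28222 genes (0.0602%) passed the threshold, and 8 of the 9 Hox genes called at 6 wpi were among them, with the same sign. hoxd11a was at 0 to 0.241 FPKM in the 5 rostral and 4.67 to 28.6 FPKM in the 5 caudal uninjured libraries (log2 difference 5.88, adjusted p = 0.00027, limma). hoxa11b was at 0.164 to 1.11 against 11.6 to 31.9 FPKM (log2 5.15, adjusted p = 0.00027). hoxc8a had a log2 difference of -1.30 in both conditions (adjusted p = 0.00434 in uninjured fish), and hoxc6a of -2.13 (adjusted p = 0.013). In none of these 4 did the uninjured groups overlap.

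hoxc11a was the exception among the calls. In uninjured fish it was at 0.0324 to 0.442 FPKM in the rostral and 0.362 to 4.73 FPKM in the caudal libraries, higher in 5 of 5 pairs, with a log2 difference of 2.62 that did not pass the threshold (adjusted p = 0.412, limma). The change of this difference between 6 wpi and uninjured fish was 1.63 (SE 0.60), with an unadjusted p of 0.0207 and an adjusted p of 0.621, so a difference between the conditions was not shown.

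Tested directly as an interaction, 0 of 28453 genes (0%) had a caudal minus rostral difference at 6 wpi that differed from that in uninjured fish past the threshold (limma). At an unadjusted p under 0.05 there were 1990. The count was 66 without 6 wpi replicate 1, 50 with all time points in one fit and 11 with voom, all of them with a lower difference at 6 wpi. Among 44 Hox genes, 7 had an unadjusted p under 0.05, beside the 1990 of all 28453 genes. Of the 7 Hox genes called higher at 6 wpi, 5 had such a p and 0 passed the adjusted threshold. The size of their difference may thus not be equal in the 2 conditions. It was larger at 6 wpi for 3 of these 7, hoxd11a, hoxa11a and hoxc11a. The rostral levels of these 3 at 6 wpi rest on 4, 14 and 22 fragments, so the pseudocount weighs on the size of their differences. For hoxd10a, hoxd9a, hoxa10b and hoxa11b the difference was smaller at 6 wpi, and the median change over the 7 was -0.66. The lowest p among the 44 was that of hoxa11b, whose difference was smaller by 1.55 at 6 wpi (SE 0.38, unadjusted p = 0.00178, adjusted p = 0.437). Its rostral level was 1.97 ± 1.09 FPKM at 6 wpi, above the 0.164 to 1.11 FPKM of the uninjured rostral libraries in 3 of 4 libraries.

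Over the 43 Hox genes tested in both conditions, 37 had the same sign and 6 the opposite one. The differences of the 43 genes correlated with r = 0.95 across genes, a description in which neighbouring genes of a cluster are not independent. The libraries of the 2 conditions are separate, and over all 26876 genes tested in both, 49.5% had the same sign. Of the 17 genes called in uninjured fish, 17 had the same sign at 6 wpi and 8 passed the threshold there.

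The 9 Hox genes were also past the threshold at 4 wpi, in 5 further pairs, where 249 of 28195 genes (0.883%) were called, 44 higher (0.156%) and 205 lower (0.727%) in the caudal cord. hoxd11a differed by 6.25, 6.32, 6.28 and 6.78 on the log2 scale at 1, 2, 4 and 6 wpi. hoxc8a differed by -1.03, -1.21, -1.19 and -1.30 at the same times. The sign of each of the 9 was the same at all 5 time points, uninjured fish included.

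**Figure D3:**
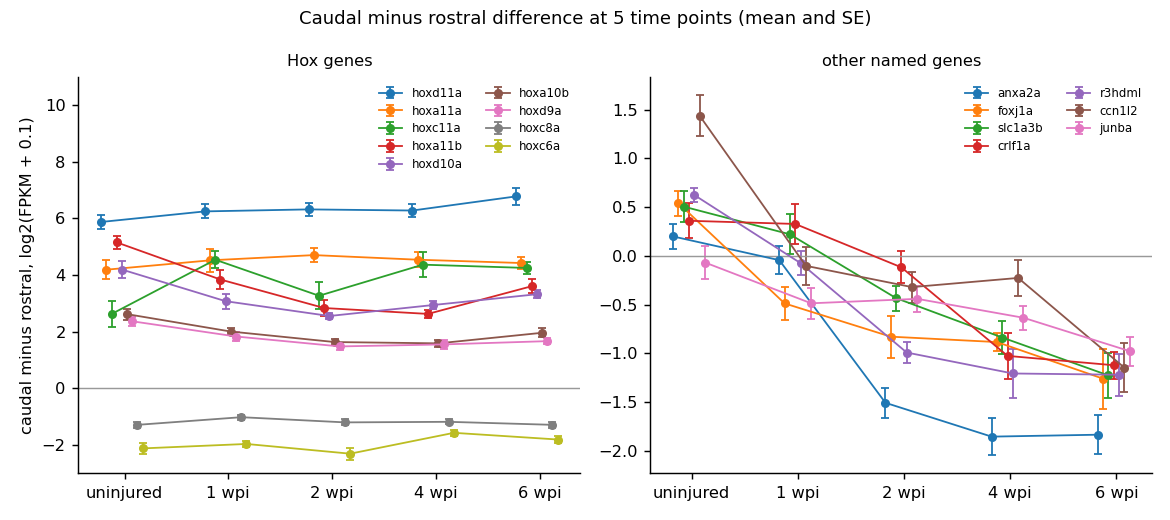
Caudal minus rostral difference on the log2(FPKM + 0.1) scale (mean and SE of the fit at each time point) in uninjured fish and at 1, 2, 4 and 6 wpi. The 9 Hox genes (left) keep their side of zero throughout. The right panel shows anxa2a, foxj1a, slc1a3b, crlf1a, r3hdml, ccn1l2 and junba, picked from the other named genes. These lie at or above about zero in uninjured fish and below zero at 6 wpi. Among the named genes not shown, gcgb, npb, sst7, pnocb, il11a and tmtops3b had a lower mean log2 level on the caudal side in uninjured fish. tmtops3b was lower on the caudal side in every pair, both in uninjured fish and at 6 wpi.

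The remaining call at 6 wpi was mir181c, a microRNA gene on chromosome 3 (34197694 to 34197771). Each of the 4 rostral libraries held exactly 1 fragment and each of the 4 caudal libraries held 0, which gave similar differences in all pairs and an adjusted p of 0.0412 (limma). No fold is given for so few fragments. With rostral replicate 4 added, which held 0 fragments, the adjusted p was 0.937, and with voom it was 0.585.

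gcgb and npb were among the genes called lower on the caudal side in uninjured fish. gcgb, one of the zebrafish genes for the glucagon precursor, measured 7.01, 3.66, 10.8 and 3.03 FPKM in the rostral and 0.675, 0.102, 0 and 0.0923 FPKM in the caudal libraries at 6 wpi. These are 246 and 9 fragments, a rostral to caudal ratio of 26.8 (exact 95% interval 13.9 to 59.3, counting error only, without the spread between libraries). The groups did not overlap, and the log2 difference of -4.55 (SE 0.54) had an adjusted p of 0.15 (limma). In uninjured fish the difference of gcgb was -3.49 and passed (adjusted p = 0.0343). npb, the precursor of neuropeptide B, passed in uninjured fish (log2 -0.96, adjusted p = 0.0063) and had a similar difference at 6 wpi that did not (-0.89, SE 0.27, adjusted p = 0.619).

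sst7, a gene of the somatostatin family, passed the threshold in uninjured fish and not at 6 wpi. Its uninjured levels were 58.6 to 225 FPKM rostral and 18.5 to 42.2 FPKM caudal (log2 -1.88, adjusted p = 0.0488, limma). At 6 wpi it measured 53.0, 42.6, 54.7 and 20.0 FPKM in the rostral and 72.3, 24.3, 22.7 and 44.7 FPKM in the caudal libraries (log2 -0.12, SE 0.38, adjusted p = 0.986). The change between the conditions was 1.76 (SE 0.48, adjusted p = 0.487), so it was not shown to differ between them.

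Other named genes were lower in the caudal library of every pair at 6 wpi, with differences that did not pass the threshold. anxa2a, which encodes the membrane-binding protein annexin A2, measured 408, 170, 203 and 5151 FPKM in rostral replicates 1, 2, 3 and 5 and 173, 40.6, 66.4 and 964 FPKM in the caudal ones. The level varied widely between pairs, and the groups overlapped, but within each pair the caudal library was lower (log2 -1.83, SE 0.20, adjusted p = 0.114, limma). Without any 1 pair the difference was -2.03 to -1.64. Uninjured levels of anxa2a were 10.7 to 22.2 FPKM rostral and 15.6 to 31.4 FPKM caudal, with a log2 difference of 0.20, and the change of the difference was -2.03 (SE 0.25, adjusted p = 0.056).

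il11a, for interleukin 11, measured 5.49, 3.84, 12 and 39.3 FPKM in the rostral and 1.99, 1.00, 0.435 and 1.16 FPKM in the caudal libraries (log2 -3.18, SE 0.62, adjusted p = 0.413), and the log2 difference was -2.59 without replicate 5. crlf1a, for a cytokine receptor-like factor, measured 2.81, 3.62, 2.58 and 4.79 against 1.31, 1.91, 1.04 and 1.86 FPKM (log2 -1.12, SE 0.14, adjusted p = 0.158, limma). Neither gene had overlapping groups at 6 wpi. In uninjured fish both were under 1 FPKM on both sides, with differences of -0.17 for il11a and 0.36 for crlf1a.

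foxj1a, the transcription factor that switches on motile cilia, measured 13.8, 17.3, 22.8 and 56.9 FPKM in the rostral and 11.9, 8.30, 8.39 and 11.2 FPKM in the caudal libraries (log2 -1.26, SE 0.31, adjusted p = 0.511, limma, and log2 -0.90 without replicate 5). slc1a3b, for a glial glutamate transporter, measured 4.52, 12.7, 9.29 and 10.9 FPKM against 3.09, 6.62, 3.14 and 2.83 FPKM (log2 -1.23, SE 0.23, adjusted p = 0.386). Only slc1a3b overlapped between the groups. In uninjured fish both had the opposite sign, 0.54 for foxj1a and 0.51 for slc1a3b, in 5 of 5 pairs each.

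junba, for a subunit of the AP-1 transcription factor, was at 32.5 ± 17.9 FPKM in the rostral and 15.6 ± 5.11 FPKM in the caudal libraries (log2 -0.98, SE 0.15, adjusted p = 0.285, limma), against -0.07 in uninjured fish. cthrc1a, for a secreted protein with a collagen triple helix repeat, was at 9.78 ± 6.70 against 2.06 ± 0.588 FPKM (log2 -1.98, adjusted p = 0.413), with a log2 difference of -1.59 without replicate 5. The neuropeptide precursors vipb and pnocb had log2 differences of -3.59 (adjusted p = 0.315) and -0.96 (adjusted p = 0.246). In uninjured fish vipb was near the floor, with 2, 0, 2, 0 and 3 fragments in rostral replicates 1 to 5 and 5, 0, 36, 0 and 1 in the caudal ones. Its difference of 0.67 there thus rests mainly on caudal replicate 3. pnocb differed by -0.41 in uninjured fish, with the caudal library lower in 4 of 5 pairs. ccn1l2, of the CCN family of matrix-associated proteins, was at 2.06 ± 1.24 FPKM rostral and 0.785 ± 0.139 FPKM caudal (log2 -1.15, adjusted p = 0.454), and in uninjured fish it was 1.44 higher on the caudal side (adjusted p = 0.178).

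The genes called at 4 wpi were chosen without the 6 wpi libraries. Of the 249, 233 (93.6%) had the same sign at 6 wpi, against 58.8% of the 27188 genes tested at both times. Of the 205 that were lower in the caudal cord at 4 wpi, 192 (93.7%) were lower at 6 wpi, with a median of -1.06 at 4 wpi and -0.70 at 6 wpi, and 123 had an unadjusted p under 0.05. Only 2 of the 205 passed the adjusted threshold at 6 wpi, hoxc8a and hoxc6a. In uninjured fish 80 of the 201 tested (39.8%) had the same sign and the median was 0.08, against 53.0% of all genes. il11a (log2 -2.82, adjusted p = 0.000426), cthrc1a (-2.04, adjusted p = 0.00234), anxa2a (-1.85, adjusted p = 0.00701), foxj1a (-0.88, adjusted p = 0.00779), vipb (-2.36) and pnocb (-1.10), the last both at an adjusted p of 0.009, were among those lower at 4 wpi (limma).

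**Figure D4:**
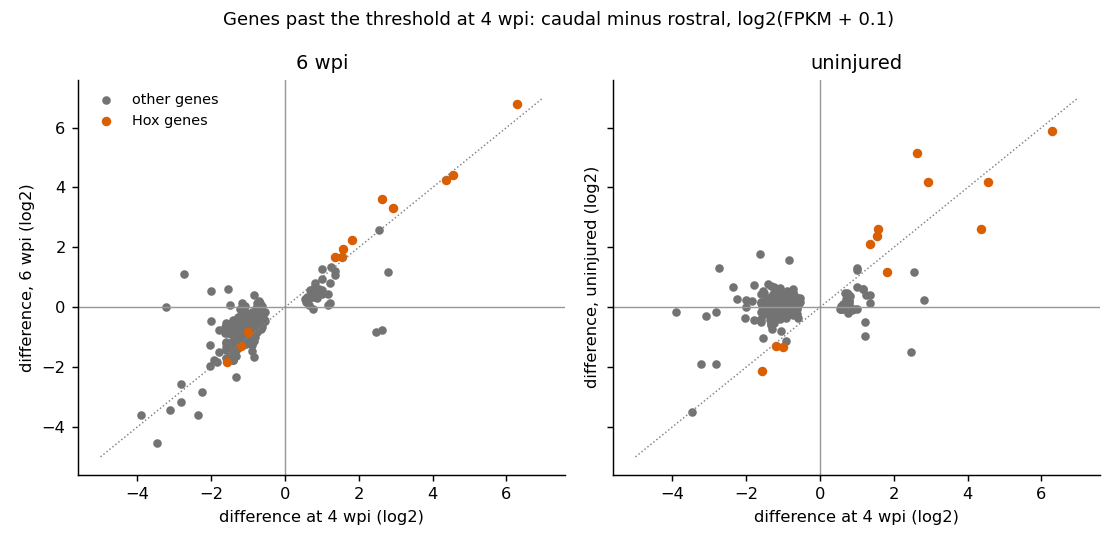
Caudal minus rostral difference at 4 wpi (x axis) of the 249 genes past the threshold there, against their difference at 6 wpi (left) and in uninjured fish (right), all on the log2(FPKM + 0.1) scale, with Hox genes in orange and the dotted line marking equal values. At 6 wpi 233 of the 249 keep their sign, while in uninjured fish the 201 tested genes that were lower at 4 wpi center on a median of 0.08.

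The count of calls outside the Hox genes depended on how the spread between libraries was estimated. One limma fit took all 48 paired libraries of the 5 time points, which assumes that pairs vary alike at all times. It called 182 genes (0.645%) at 6 wpi, 29 higher and 153 lower (0.542%) in the caudal cord. Of the 153, 134 were lower in all 4 pairs, but the calls came from these same pairs, so this is no separate evidence. In that fit anxa2a (adjusted p = 8.02e-06), il11a (0.00204), slc1a3b (0.00751), junba (0.00861) and foxj1a (0.0108) were lower on the caudal side at 6 wpi. The interaction with uninjured fish then called 50 genes (0.176%), all 50 with a lower difference at 6 wpi, among them anxa2a (-2.03, adjusted p = 0.000589), ccn1l2 (-2.58, adjusted p = 0.000339), slc1a3b (-1.73, adjusted p = 0.0138) and foxj1a (-1.80, adjusted p = 0.0187). None of the 9 Hox genes was among the 50.

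No member of the other 17 pathway lists passed the threshold in the comparison of the 8 libraries. The injury list (AP-1 and related transcription factors, cytokine signaling and axon growth genes) had 54 genes tested, 42 of them with a lower mean log2 level on the caudal side, a median of -0.14 and 16 with an unadjusted p under 0.05, all lower. Over all genes tested 1179 (4.18%) had such a p and were lower, and 772 (2.74%) were higher. In uninjured fish the median of this list was 0.03. Its transcription factors junbb (log2 -0.77), fosl2 (-1.01) and cebpd (-0.54), and socs3a (-0.91), an inhibitor of cytokine signaling, had unadjusted p under 0.05 without passing the adjusted threshold.

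Of 31 cell cycle genes tested, 30 had a lower mean log2 level in the caudal cord, with a median of -0.40, against 0.10 in uninjured fish. Only 2 of the 31 had an unadjusted p under 0.05 (limma), the replication licensing genes mcm5 (log2 -0.54) and mcm3 (-0.49). Beside these 2, 4.18% of all genes tested were lower at such a p. The median of the list was -0.73 without pair 1 and -0.19 without pair 5. The 24 genes of radial glia and ependyma had a median of -0.18, with 17 negative, and the 18 of neutrophils and lymphocytes a median of -0.31, with 14 negative. In each of these 4 lists the sign of the median was the same under quantile normalization, median centring and voom.

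Of 35 microglia and macrophage genes tested, 0 passed the threshold, and 21 had a higher and 14 a lower mean log2 level in the caudal cord. At an unadjusted p under 0.05 (limma), 7 were higher caudally and 0 lower, beside 2.74% and 4.18% of all genes tested. Those 7 include havcr1 (log2 0.61, adjusted p = 0.362), apoc1, a lipoprotein gene (0.57), grna, for a granulin (0.41), and spi1b, the myeloid transcription factor (0.27). The median of the list was 0.11, against 0.04 in uninjured fish and -0.26 at 4 wpi, and without replicate 5 it was 0.04 at 6 wpi. The 24 myelin and oligodendrocyte genes had a median of 0.15, with 0 higher and 1 lower at an unadjusted p under 0.05, beside the same shares of all genes.

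**Figure D5:**
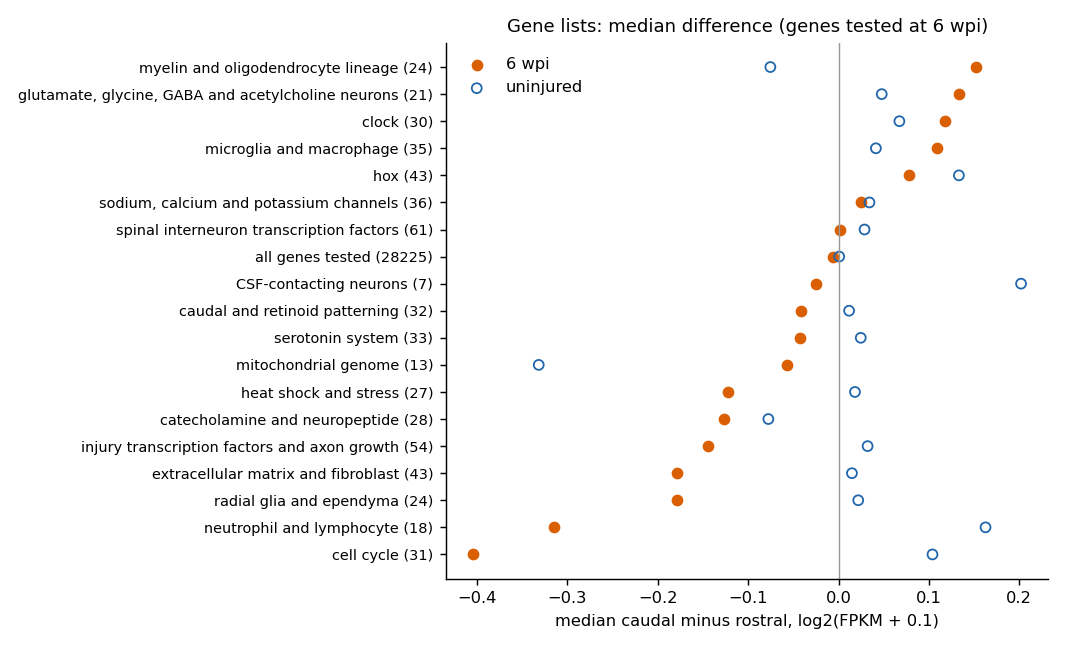
Median caudal minus rostral difference on the log2(FPKM + 0.1) scale of each pathway list and of all genes at 6 wpi (filled) and in uninjured fish (open), with the number of genes tested at 6 wpi in brackets. The cell cycle and the neutrophil and lymphocyte lists lie farthest below zero at 6 wpi, at -0.40 and -0.31, while all genes tested lie at -0.01.

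The serotonin genes to which the study turned did not differ past the threshold between caudal and rostral cord. The paper compared the receptor genes htr1b, htr2b and htr7c with uninjured cord over the weeks, which is another contrast. htr1b, for the 5-HT1B receptor, measured 5.72, 5.97, 2.61 and 4.18 FPKM in the rostral and 4.40, 4.13, 4.01 and 4.45 FPKM in the caudal libraries, with overlap (log2 -0.05, SE 0.20, adjusted p = 0.989, limma). tph2, the serotonin-synthesizing hydroxylase of neurons, was at 1.97 ± 0.322 FPKM rostral and 1.77 ± 0.178 FPKM caudal (adjusted p = 0.923). fev, the transcription factor of serotonergic neurons, was at 5.97 ± 0.981 against 4.90 ± 0.323 FPKM (log2 -0.27, SE 0.12, adjusted p = 0.736). The receptor genes htr2b and htr7c had log2 differences of -0.14 and 0.15 (SE 0.21 and 0.14). Over the 33 genes of the serotonin list that were tested, the median was -0.04 at 6 wpi and 0.02 in uninjured fish. At an unadjusted p under 0.05 (limma), 3 of the 33 were lower caudally and 0 higher, beside 4.18% and 2.74% of all genes tested. With all time points in one fit, 1 of the 33 was called lower, beside 0.542% of all genes tested.

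At 6 wpi the summed level of some markers of other tissues had the same direction in all pairs, which 4 pairs cannot bring past the threshold. The summed level of 20 skin and epithelial markers, 17 of them detected, was 299 to 904 FPKM in the rostral and 189 to 678 FPKM in the caudal libraries, lower in 4 of 4 pairs (mean log2 difference -0.57, SD 0.24, exact sign-flip p = 0.13, which is the smallest that 4 pairs allow). icn took most of this sum, at a mean of 431 FPKM rostral and 285 FPKM caudal, and of the 13 skin markers tested 5 were higher and 8 lower caudally, with a median of -0.22. In uninjured fish the sum was lower in 4 of 5 pairs (-0.16, SD 0.25, exact p = 0.19). The sum of 17 pigment cell markers was lower in 4 of 4 pairs (-0.34, SD 0.24, exact p = 0.13). Of the 12 pigment markers tested, 9 were lower and 3 higher caudally, with a median of -0.14. In uninjured fish the pigment sum was higher caudally in 3 of 5 pairs (0.03, SD 0.26, exact sign-flip p = 0.88). For 21 markers of cartilage, bone and notochord the sum was higher in 4 of 4 pairs (0.30, SD 0.18, exact p = 0.13). It was also higher in 5 of 5 uninjured pairs (0.21, SD 0.13, exact p = 0.063, the smallest for 5 pairs). Of the 15 of these markers tested at 6 wpi, 9 were higher and 6 lower caudally, with a median of 0.07. Muscle, at 62.6 to 87.8 FPKM rostral and 49.8 to 115 FPKM caudal, and hindbrain markers, with a mean difference of 0.01, had pairs in both directions. Of the red blood cell markers, 7 were tested, with a median of -0.46. At an unadjusted p under 0.05 (limma) 3 of the 7 were lower, beside 4.18% of all genes tested. The summed level of the red blood cell markers was higher on the caudal side in 1 of 4 pairs (mean -0.23, SD 0.31, exact p = 0.25). The part of skin and pigment cells in the genes that were lower caudally was not tested.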

How the data were processed

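The authors deposited FPKM values for each gene and library. The submitters' processing notes name HISAT2 2.0.5, featureCounts 1.5.0-p3 and danRer11, and the paper tested these tissues with DESeq2. Recovered fragments were whole within 0.1 fragment in 100% of values under 2000 fragments. Gene names came from tables keyed by Ensembl identifier, and a and b copies were told apart by RefSeq symbol and chromosome.

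log2(FPKM + 0.1) was fitted with limma 3.58.1 in R 4.3.3 (lmFit, eBayes with trend, two-sided, Benjamini-Hochberg, threshold 0.05) for genes with a mean of at least 0.1 FPKM, with replicate number as block. The code of the fit was run on simulated libraries. These did not model a gene close to absent on one side, or fish shared between libraries. The paper does not state that same-numbered libraries come from the same fish. Deviations from the group means correlated at 0.34 to 0.57 between same-numbered libraries at 6 wpi, 0.28 to 0.60 in uninjured fish and 0.37 to 0.54 at 4 wpi. Between libraries of different numbers the highest correlation was 0.08 at 6 wpi, 0.24 in uninjured fish and 0.18 at 4 wpi.

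Genes named were chosen from those past the threshold, then those with the smallest p in each direction and the same sign in every pair. Added were up to 2 per list, the serotonin genes of the study, the largest in uninjured fish and the smallest p of the interaction. Some of this set, among them ctdnep1a, mustn1a and crabp2b, are not described in the text. The comparison, lists and members were chosen with earlier results of these data known. Alternatives were other pseudocounts, filters, scalings, variance models and library sets.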

Additional observations from a re-analysis of the deposited data

Results flagged for a closer look

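Of 272 sets of values checked for a library far from the rest of its group (64 genes and 4 library measures in 4 groups), 21 had one, and chance gives about 13.6 (1 in 20). Each result is given as a value only. Among caudal 6 wpi libraries, replicate 2 was lowest for hoxd11a (9.80 FPKM, others 16.6 to 17.5), hoxa10b (52.9, others 67.0 to 69.3) and mcm5 (2.18, others 3.21 to 3.47), and highest for slc1a3b (6.62, others 2.83 to 3.14). Caudal 6 wpi replicate 5 was highest for pamr1a (3.45 FPKM, others 2.02 to 2.07), replicate 1 for mcm3 (4.07, others 3.10 to 3.19), and replicate 3 lowest for the B cell gene cd79a (0, others 0.0795 to 0.0875).

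Among the paired rostral 6 wpi libraries, replicate 5 was highest for ascl1a (21.6 FPKM, others 7.42 to 8.56). Replicate 4, which has no partner and was left out of this check, held ascl1a at 21.4 FPKM, close to replicate 5. In the paired set, replicate 1 was highest for cd79a (0.575, others 0.237 to 0.270) and htr2b (1.03, others 0.589 to 0.608). Replicate 3 was highest for mir196d (0.775, others 0), and replicate 2 lowest for MT-ND6 (248, others 358 to 386).

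In uninjured fish, caudal replicate 5 was highest for anxa2a (31.4 FPKM, others 15.6 to 18.3), caudal replicate 3 for pdk4 (5.97, others 3.12 to 3.60) and rostral replicate 5 for mir196d (0.785, others 0). Rostral replicate 1 was lowest for htr1b (4.03, others 6.38 to 6.84), rostral replicate 2 for cd79a (0, others 0.465 to 0.823), and replicate 1 was lowest for npb on both sides (34.1 rostral, others 51.0 to 58.8, and 15.1 caudal, others 27.1 to 31.6).

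Among the paired libraries at 6 wpi, the share of fragments on loci without an Ensembl identifier was lowest in replicate 5 of both sides. It was 3.19% rostral (others 4.19 to 4.34%) and 3.22% caudal (others 4.46 to 4.53%). Rostral replicate 4, which has no partner, held 3.07%.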

How the results depend on the processing

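The 9 Hox differences at 6 wpi kept their direction in all 15 alternatives, and all 9 were called without the block (10 genes in all), with both other pseudocounts, with a mean of at least 1 FPKM, quantile normalization, median centring, voom and all time points. The total of 10 genes was 5 with no filter and 5 with no trend (5 and 4 of the Hox genes). With voom it was 60 and with all time points 182. Without 1 replicate it was 4 to 6 (4 without replicate 3 or 5, 5 without 2, 6 without 1). Each gene called without 1 replicate was a Hox gene higher in the caudal cord. hoxc8a and hoxc6a were called in none of these sets, nor with no filter. With rostral replicate 4 added and no block, 7 of the 9 were called. The 17 uninjured calls became 6 without the block, 3 with no trend, 29 with voom, 28 with all time points, 3 to 14 without 1 replicate (3 without replicate 4, 7 without 5), 1 with replicates 1 to 3 and 10 with replicates 4 and 5. The interaction count of 0 was 1 without the block, with pseudocount 1, with no filter and with no trend, 2 with quantile normalization, 6 with a mean of at least 1 FPKM, 11 with voom, 50 with all time points, and 0 to 66 without 1 replicate (66 without 6 wpi replicate 1, 2 without 6 wpi replicate 5). The 249 calls at 4 wpi were 36 without the block. Chosen after seeing the data, replicates 1, 2, 3 and 5 alone gave 132 calls at 4 wpi and 3 in uninjured fish. The causes of these shifts were not tested.

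Over 64 named genes, 870 values kept direction and side of the threshold, 42 passed it, 37 lost it and 6 reversed. The reversed values, none of a called gene, were htr1b, 0.05 without replicate 1 and 0.11 without replicate 2 (range -0.27 to 0.11), htr2b, 0.0049 without replicate 1 (-0.25 to 0.0049), and sst7, 0.11 without replicate 2, 0.27 without replicate 3 (-0.54 to 0.27) and 0.17 with rostral replicate 4 added. The rostral levels of hoxd11a, hoxa11a and hoxc11a rest on 4, 14 and 22 fragments in all, which sets the depth behind their differences.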

Other observations

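A pair of gene groups that the lists did not hold were chosen after their values were seen, and are given with no test of the group. Of 66 motile cilia genes tested (cfap, rsph, tekt, dnah, dnai, drc and odad names), 57 had a lower mean log2 level in the caudal cord at 6 wpi, 17 in all 4 pairs, with a median of -0.40, -0.63 without replicate 1 and -0.26 without replicate 5, against 0.13 in uninjured fish, -0.01 at 1 wpi, -0.38 at 2 wpi and -0.53 at 4 wpi. None passed the threshold with the 8 libraries, where 24 had an unadjusted p under 0.05 and were lower (4.18% of all genes tested were), and 8 did with all time points in one limma fit, which called 0.542% of all genes as lower. Among these, tekt4, a tektin of ciliary microtubules, was at 3.43 ± 1.86 FPKM rostral and 1.06 ± 0.239 FPKM caudal (log2 -1.50, adjusted p = 0.386 with the 8 libraries and 0.0104 with all time points), and cfap53 at 6.08 ± 2.09 against 3.07 ± 0.776 FPKM (log2 -0.94, adjusted p = 0.237 and 0.00107). rsph9, for a radial spoke head protein, was at 15.3 ± 10.5 against 7.18 ± 3.01 FPKM (log2 -0.95, adjusted p = 0.414 and 0.00204).

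Of 20 sterol synthesis genes tested, 19 had a lower mean log2 level caudally at 6 wpi, with a median of -0.42, against 0.00 in uninjured fish and -0.25 at 4 wpi. None passed with the 8 libraries, where 9 had an unadjusted p under 0.05 and were lower (4.18% of all genes tested), and 5 did with all time points in one limma fit (0.542% of all genes called lower). hmgcs1, for the synthase that makes HMG-CoA, was at 7.16 ± 3.25 FPKM rostral and 3.97 ± 0.729 FPKM caudal (log2 -0.75, adjusted p = 0.448 and 0.00252), with 0.24 in uninjured fish and 0.11 at 4 wpi. sqlea, for squalene epoxidase, was at 1.16 ± 0.771 against 0.385 ± 0.153 FPKM (log2 -1.20, adjusted p = 0.453 and 0.0361).

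Several genes for secreted peptides or proteins were among the largest decreases with all time points in one fit, also chosen after their values were seen. qrfp, for a neuropeptide that acts on feeding in mammals, was at 237 ± 228 FPKM rostral (53.7 to 564) and 16.0 ± 4.78 FPKM caudal (9.05 to 19.9), a log2 difference of -3.42 (SE 0.65, adjusted p = 0.386 with the 8 libraries and 0.000395 with all time points, limma), against -0.30 in uninjured fish. nppcl2, of the C-type natriuretic peptide family, was at 107 ± 112 against 11.3 ± 4.69 FPKM (log2 -2.84, adjusted p = 0.414 and 0.000365), against 0.27 in uninjured fish. crhbp, for the binding protein of corticotropin-releasing hormone, was at 197 ± 48.7 against 65.6 ± 24.4 FPKM (log2 -1.61, adjusted p = 0.237 and 0.000496). With all time points in one fit, the interaction with uninjured fish called qrfp and nppcl2 and did not call crhbp. The groups did not overlap for any of the 3. These genes were chosen from a fit that includes the same 8 libraries, so that separation is no separate evidence.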
